A study of Schizosaccharomyces pombe with 4 samples.

Results

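Described here are 8 fission yeast (Schizosaccharomyces pombe) genes of the cell wall glucan and plasma membrane, out of 5133 genes listed in at least 1 library. They were picked by identifier with earlier results of the Y41F against WT contrast in view, so their counts and fold changes in that contrast are a description and not a test. They comprise 3 glucan synthase genes (bgs1, SPBC19G7.05c; bgs4, SPCC1840.02c; ags1, SPCC1281.01), 4 genes for enzymes that cut or rejoin glucan (gas1, SPAC19B12.02c; bgl2, SPAC26H5.08c; psu1, SPAC1002.13c; eng1, SPAC821.09) and 1 membrane protein gene of the SUR7 family (pun1, SPAC15A10.09c). The series holds 4 RNA-seq libraries of total RNA from log-phase cultures in YEA, a rich medium, at 30 °C: 2 of Y41F cells and 2 of wild type (WT) cells. Y41F is a tyrosine to phenylalanine substitution whose protein the labels do not name; from what is known of the study it is taken here as a change in histone H3. Y41F library 1 came from strain SPBB297 and Y41F library 2 from strain SPBB298, while both WT libraries came from strain KOR3006. A difference between the Y41F libraries and a difference between those strains therefore cannot be told apart. Nor can a difference between Y41F and WT be told apart from a difference between the strains of the 2 groups. The Y41F libraries, being of different strains, are separate cultures, while nothing in the labels says whether the WT libraries are. The spread within Y41F thus lies across strains and that within WT does not. The p-values speak of the spread among these 4 libraries alone.

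The fission yeast wall is a layered net of beta-1,3-glucan, beta-1,6-branched beta-glucan and alpha-1,3-glucan under a coat of galactomannoprotein. Integral membrane synthases extrude the glucan chains, with the small GTPase Rho1 as the activator of the beta-glucan synthases, and secreted or anchored enzymes then trim, branch and elongate the chains so that the cell can grow at its tips and lay down a septum. At the end of division the primary septum and its edging are dissolved by glucanases so that the daughters part. Proteins of the SUR7 family span the membrane several times and in budding yeast mark static membrane domains near eisosomes, the furrows shaped by Pil1.

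Library totals lay between 20845572 and 23616464 expected counts, and each library listed between 5120 and 5129 genes. The first principal component of log2(CPM + 1) over genes tested, with 45.8% of the variance, set the libraries numbered 1 apart from those numbered 2, and the next, with 38.8%, set Y41F apart from WT. For this reason the values of each library stand beside the fold change of each of the 8 genes below, though not of every other gene named. All 8 genes were listed in all 4 libraries, passed the filter on low counts, and had whole-number counts in every library, so the estimate of shared reads left none of them with a fractional share. Their counts ran from 1083 to 28614, which gives 95% exact Poisson intervals of 1.16% to 6.0% of the count on either side, for counting error only.

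Levels are compared between genes on the FPKM scale, which divides by coding length and library size. The gene with the highest level of the 8 was gas1, whose product is a beta-1,3-glucanosyltransferase that elongates and joins glucan chains. It had 557 and 760 FPKM in the Y41F libraries, against 747 and 638 FPKM in the WT libraries. This level was above that of 95.1% of listed genes in Y41F and 95.3% in WT. Lowest was bgs1, for the synthase of the linear beta-1,3-glucan of the primary septum, with 29.4 and 33.9 FPKM in the Y41F libraries, against 26.9 and 26.2 FPKM in the WT libraries. The full order in Y41F, from high to low, was gas1, psu1, eng1, pun1, bgs4, bgl2, ags1 and bgs1. There the libraries of psu1, eng1, pun1 and bgs4 all overlapped each other, as did those of bgl2 and ags1. Within each of these sets the genes were not separated beyond their spread. In WT the order was gas1, psu1, eng1, bgs4, ags1, pun1, bgl2 and bgs1, and ags1 and pun1 alone had overlapping libraries. Thus pun1 ranked 4 of 8 in Y41F and 6 of 8 in WT.

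**Figure D1:**
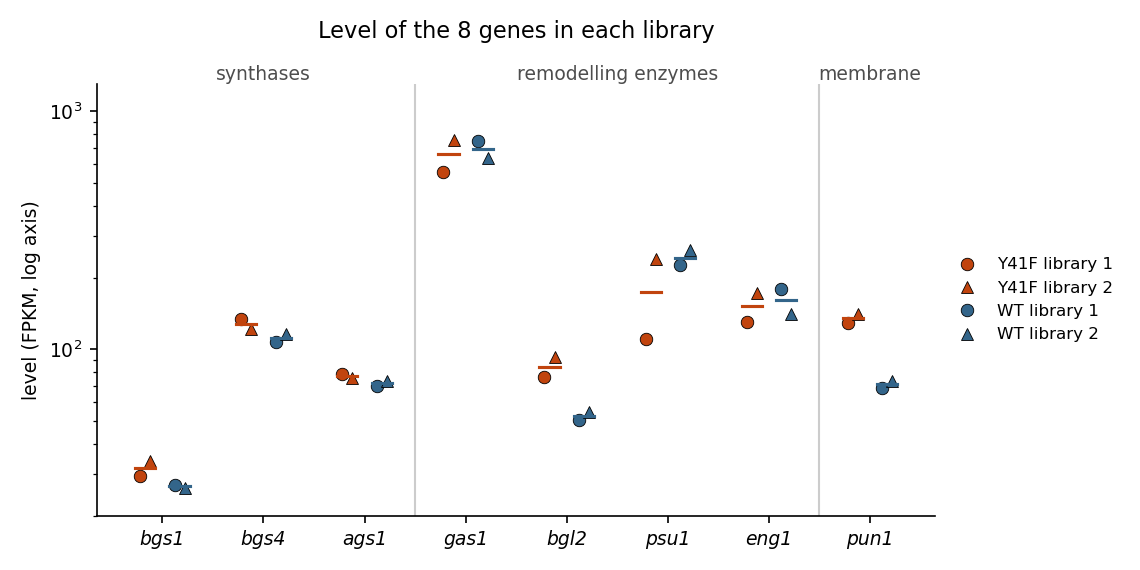
Level of each of the 8 genes in FPKM (log axis), with Y41F libraries left of WT libraries for each gene; circles are libraries numbered 1, triangles libraries numbered 2, and bars the mean of 2 libraries. For pun1 the Y41F libraries, at 129 and 141 FPKM, lie above the WT libraries, at 69.1 and 73.4 FPKM, and for psu1 Y41F library 1 lies apart at 110 FPKM.

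Expression in Y41F and WT was compared on counts. Here CPM are counts relative to library size after TMM scaling between libraries, and log2 fold changes are Y41F over WT from edgeR's quasi-likelihood test over 5076 genes, each with its standard error (SE). The threshold for a call was 0.05 on the p-value adjusted by Benjamini-Hochberg over all genes. Of the 8 genes 0 were called by edgeR, where 0.0197% of all genes tested were called, and 2 had an unadjusted p under 0.05, where 6.70% of all genes did. DESeq2 called 2 of them, pun1 and bgl2, where it called 1.34% of all genes. Without Y41F library 1 edgeR called pun1 and bgl2, where 1.28% of genes were called, and without Y41F library 2 it called pun1, bgl2 and psu1, where 3.88% were called. Without WT library 1 or WT library 2 it called none of the 8, and none of all genes, with 168 and 262 genes at an unadjusted p under 0.05. In these fits the lone library of a group is assumed to vary like the others. As the genes were chosen with this contrast in view, nothing is read from these counts. In 5 of the 8 genes both Y41F libraries lay above both WT libraries, which held for 19.2% of all genes, and in psu1 both lay below, which held for 18.0%.

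The gene for the SUR7 family protein, pun1, had the largest fold change of the 8. It had 110 and 119 CPM in the Y41F libraries, against 62.2 and 62.7 CPM in the WT libraries. The groups did not overlap, and the gap between them was wider than the spread within either. The means were 115 ± 6.63 CPM in Y41F and 62.5 ± 0.331 CPM in WT (SD, n = 2 each), a log2 fold change of 0.88 ± 0.09 (SE), or 1.84-fold, with an edgeR adjusted p of 0.0713. Its libraries within a group differed little: library 2 over library 1 was 0.12 on the log2 scale in Y41F and 0.01 in WT, and over all genes the median size of that difference was 0.13 in Y41F and 0.11 in WT. With each library left out in turn, the log2 fold change of pun1 stayed between 0.82 and 0.94.

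Among the synthase genes, all 3 were slightly higher in both Y41F libraries, and none was called. The bgs4 gene, for the synthase of the branched beta-1,3-glucan of the wall and secondary septum, had 802 and 725 CPM in the Y41F libraries, against 676 and 694 CPM in the WT libraries. The gap between the groups was narrower than the spread within Y41F, and the log2 fold change was 0.16 ± 0.10 (SE; edgeR adjusted p = 0.821). For bgs1 the values were 155 and 178 CPM in the Y41F libraries, against 150 and 139 CPM in the WT libraries. Again the gap was narrower than the spread within Y41F, and the log2 fold change was 0.21 ± 0.10 (edgeR adjusted p = 0.797). The alpha-1,3-glucan synthase gene ags1 had 581 and 555 CPM in the Y41F libraries, against 546 and 547 CPM in the WT libraries. This was the smallest fold change of the 8, at 0.06 ± 0.09 on the log2 scale (edgeR adjusted p = 0.933).

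Per coding length, bgs4 was the most abundant of these synthases in every library. It made up 55.4% and 52.7% of the summed FPKM of the 3 genes in the Y41F libraries, against 52.5% and 53.6% in the WT libraries. The share of ags1 was 32.5% and 32.7% in the Y41F libraries, against 34.3% and 34.2% in the WT libraries, and bgs1 made up the rest. The other members of these families, named here for their family and not for how they moved, were at lower levels than bgs4. The bgs3 gene, for a further wall beta-glucan synthase, averaged 34.9 ± 0.679 FPKM in Y41F and 31.4 ± 0.877 FPKM in WT (SD, n = 2 each). The spore wall synthase gene bgs2 averaged 16.9 ± 0.721 FPKM in Y41F and 16.7 ± 2.20 FPKM in WT. Of the alpha-glucan synthase paralogues, mok14 was highest, with 22.8 ± 0.191 FPKM in Y41F and 20.7 ± 1.97 FPKM in WT, and mok12 was lowest, with 5.29 ± 0.707 FPKM in Y41F and 4.40 ± 0.375 FPKM in WT.

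The remodelling enzymes did not move one way. The gene bgl2, for a glucan beta-glucosidase of the wall, had 72.8 and 87.9 CPM in the Y41F libraries, against 50.7 and 52.3 CPM in the WT libraries. The groups did not overlap, and the gap between them was wider than the spread in either. The log2 fold change was 0.64 ± 0.12 (SE), or 1.56-fold, with an edgeR adjusted p of 0.283. Leaving out each library in turn kept it between 0.50 and 0.78, the lowest without Y41F library 2.

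For psu1, a gene of the SUN family whose product is annotated as a beta-glucosidase, 1 library decided the value. It had 137 and 296 CPM in the Y41F libraries, against 298 and 326 CPM in the WT libraries. Y41F library 1 lay far below the other 3, and Y41F library 2 just below WT library 1. On the FPKM scale the groups overlapped, with 110 and 239 FPKM in the Y41F libraries, against 225 and 260 FPKM in the WT libraries. The log2 fold change was -0.52 ± 0.34 (SE; edgeR adjusted p = 0.821). It was -0.07 without Y41F library 1 and -1.18 without Y41F library 2, where psu1 was called lower (edgeR adjusted p = 0.00131). Library 2 over library 1 was 1.11 for psu1 in Y41F, a difference larger in size than that of 98.2% of genes, and 0.13 in WT, larger than that of 55.6%. The part of the strain in this was not tested, since each Y41F strain gave 1 library. The other SUN family gene, psu2, was at a far lower level, with 7.85 and 12.3 FPKM in the Y41F libraries, against 8.47 and 11.5 FPKM in the WT libraries, where psu1 averaged 174 ± 90.9 FPKM in Y41F and 243 ± 24.5 FPKM in WT (SD, n = 2 each).

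The eng1 and gas1 genes differed between libraries of 1 group rather than between the groups. The gene eng1, for the endo-beta-1,3-glucanase that dissolves the primary septum, had 403 and 532 CPM in the Y41F libraries, against 588 and 438 CPM in the WT libraries. For gas1 the values were 910 and 1233 CPM in the Y41F libraries, against 1291 and 1045 CPM in the WT libraries. In both genes WT library 1 was highest and Y41F library 1 lowest, and the groups overlapped. Library 2 over library 1 was 0.40 for eng1 and 0.44 for gas1 in Y41F, and -0.42 and -0.30 in WT, on the log2 scale. In size these differences exceeded those of between 88.8% and 93.9% of genes. The log2 fold change was -0.13 ± 0.20 (SE) for eng1 and -0.12 ± 0.19 for gas1 (edgeR adjusted p = 0.915 and 0.917). It was 0.06 and 0.09 without Y41F library 1, and 0.10 and 0.04 without WT library 1. The transcript of eng1 peaks around septation. In these bulk libraries a difference in the share of cells at that stage and a difference in RNA per cell cannot be told apart.

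**Figure D2:**
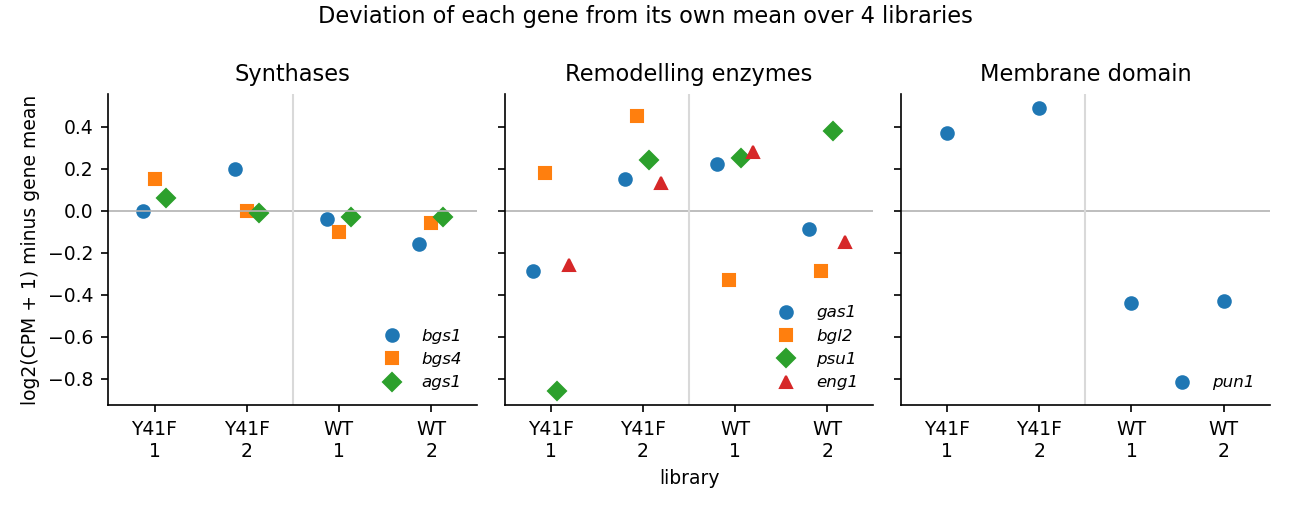
Deviation of log2(CPM + 1) from the gene's own mean over the 4 libraries, for the synthases, the remodelling enzymes and pun1; each point is 1 library, with Y41F left of WT. Points of eng1 and gas1 lie side by side in every library, at -0.26 and -0.29 in Y41F library 1, while psu1 lies at -0.86 there and bgl2 and pun1 are above 0 in both Y41F libraries.

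As a set, the 4 remodelling genes had a median log2 fold change of -0.13 and the 3 synthase genes one of 0.16, where the median over all genes tested was 0. The remodelling median changed sign with the library left out: it was 0.07 when either library numbered 1 was left out, and -0.35 for Y41F library 2 left out and -0.30 for WT library 2. Summed per library, remodelling genes had 874 and 1264 FPKM in the Y41F libraries, against 1203 and 1094 FPKM in the WT libraries. Y41F library 1 was lowest and the groups overlapped. The synthase sum was 242 and 231 FPKM in the Y41F libraries, against 204 and 216 FPKM in the WT libraries, with no overlap. The remodelling sum was 3.61 and 5.46 times the synthase sum in the Y41F libraries, against 5.90 and 5.07 times in the WT libraries. WT library 1 was highest and Y41F library 1 lowest, the groups overlapped, and the mean ratio was 4.53 ± 1.31 in Y41F and 5.49 ± 0.589 in WT (SD, n = 2 each). The log2 of the Y41F ratio over the WT ratio was -0.28, and it was -0.01 without Y41F library 1 and -0.61 without Y41F library 2. The difference between the means was smaller than the SD of the Y41F libraries.

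**Figure D3:**
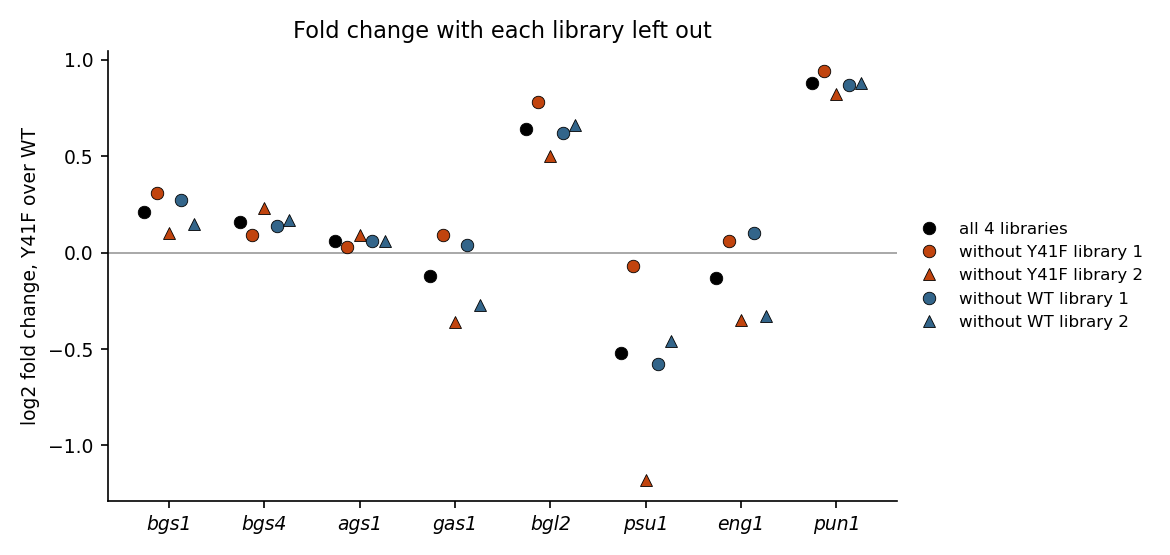
Log2 fold change of Y41F over WT for each gene with all 4 libraries (black) and with 1 library left out (colour and symbol name the library). The values of pun1 stay between 0.82 and 0.94, those of psu1 range from -1.18 to -0.07, and those of eng1 and gas1 fall on both sides of 0.

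Genes whose profile over the 4 libraries was nearest to a member were found by the Euclidean distance between centred log2(CPM + 1) values, over genes that averaged 5 CPM or more. Nearest to pun1 were mcp6, for a protein of meiotic horsetail movement, at a distance of 0.117, the hexose transporter gene ght4 at 0.132 and the transcription factor gene rsv2 at 0.160. Near bgl2 lay SPCC794.04c, annotated as a transporter, at 0.0918, then mug143 at 0.101 and ftm5 at 0.116. Next to psu1 came the tRNA thiolation gene ctu2 at 0.176, ceo5 at 0.182 and rrp9, for a protein of the U3 snoRNP, at 0.204. The rrp9 gene had 54.1 and 106 CPM in the Y41F libraries, against 114 and 107 CPM in the WT libraries. Y41F library 1 was the low one, as follows from the choice of genes by their likeness to psu1.

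The gene second nearest to eng1 among all genes was gas1, at 0.0893, after mrm2 at 0.0248. Among the 28 pairs of members this was the smallest distance, followed by 0.117 between bgs4 and ags1, and the largest was 1.64 between pun1 and psu1. The genes nearest to bgs1, bgs4, ags1 and gas1 were mug33 at 0.0253, SPBC21.03c at 0.00792, gls2 at 0.00757 and rrp36 at 0.0522. Genes with small deviations in every library lie close to many others by this measure, and with 4 libraries a near profile carries no further meaning.

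By the order of genes in the ASM294v3 annotation, no member had another member as its nearest protein-coding neighbour. The gene next to gas1 on 1 side is bgs3, a beta-glucan synthase gene, which had 197 and 191 CPM in the Y41F libraries, against 189 and 172 CPM in the WT libraries (log2 fold change 0.10 ± 0.09, edgeR adjusted p = 0.866). The neighbours of pun1 are ain1, for alpha-actinin, and mde6. The ain1 gene had 61.2 and 63.6 CPM in the Y41F libraries, against 67.1 and 65.6 CPM in the WT libraries. For mde6 there were 66.0 and 109 CPM in the Y41F libraries, against 59.6 and 55.2 CPM in the WT libraries, with no overlap and a log2 fold change of 0.61 ± 0.23 (edgeR adjusted p = 0.724). This was 0.20 without Y41F library 2 and 0.93 without Y41F library 1, where mde6 was called (edgeR adjusted p = 0.00231). Those of bgl2, SPAC26H5.07c and SPAC26H5.09c, had log2 fold changes of 0.00 ± 0.11 and -0.03 ± 0.26. Beside eng1, slp1 had 96.6 and 118 CPM in the Y41F libraries, against 156 and 131 CPM in the WT libraries. Its log2 fold change was -0.42 ± 0.14 (edgeR adjusted p = 0.633). On the other side of gas1, cmc4 had -0.51 ± 0.25 (edgeR adjusted p = 0.797). The values of mbx1 beside bgs1 and mug112 beside ags1 were 0.25 ± 0.11 and 0.33 ± 0.3. Remaining neighbours that were tested lay between -0.29 and 0.14. As the use of strand in counting is not stated in any source used here, reads of overlapping neighbours may be shared.

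Other genes of wall synthesis, wall remodelling, membrane domains, cell separation and the cell integrity pathway were taken from 5 lists. Together they hold 54 genes, all of them tested, of which edgeR called 0 and DESeq2 0, where the shares over all genes were 0.0197% and 1.34%. An unadjusted p under 0.05 was found for 3 of them, or 5.56%, where all genes gave 6.70%. Without Y41F library 2 edgeR called 1 of them, fhn1, where it called 3.88% of all genes, and without any of the other libraries it called 0. Of the 18 other glucan synthases and regulators, 14 had a fold change above 0 and 4 below, with a median log2 fold change of 0.06. In 6 of them both Y41F libraries lay above both WT libraries and in 1 below, where all genes gave 19.2% and 18.0%. Furthest from 0 was sbg1, for a protein that binds Bgs1 at the division site, with 30.8 and 36.7 FPKM in the Y41F libraries, against 24.8 and 26.2 FPKM in the WT libraries. Its log2 fold change was 0.36 ± 0.14 (edgeR adjusted p = 0.724). The mok12 gene had 0.22 ± 0.13, and rga1, for a GTPase-activating protein of Rho1, had -0.12 ± 0.09. The most abundant on the CPM scale, rho1, and smi1, for an adaptor of the beta-glucan synthase, had log2 fold changes of 0.01 ± 0.10 and -0.04 ± 0.09.

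Among 12 other wall remodelling enzymes and wall surface proteins, 7 had a fold change above 0 and 5 below, with a median of 0.07. The list holds 3 paralogues of gas1, of which gas2 alone had a mean level above that of gas1, with 1010 and 1500 FPKM in the Y41F libraries, against 769 and 1033 FPKM in the WT libraries. The groups overlapped, and the log2 fold change was 0.44 ± 0.22 (edgeR adjusted p = 0.797), 0.70 without Y41F library 1 and 0.13 without Y41F library 2. The gas4 gene averaged 79.2 ± 2.95 FPKM in Y41F and 85.3 ± 1.10 FPKM in WT, and gas5 104 ± 7.25 FPKM in Y41F and 106 ± 4.95 FPKM in WT (SD, n = 2 each), both far below gas1. The gene for the GPI-anchored protein Meu10, meu10, was at a low level, with 5.90 and 7.87 FPKM in the Y41F libraries, against 3.63 and 4.56 FPKM in the WT libraries. Its log2 fold change of 0.71 ± 0.23 was the largest of the list (edgeR adjusted p = 0.634). The log2 fold change of gas4 was -0.15 ± 0.08, and that of ecm33, for an abundant surface protein, 0.14 ± 0.10.

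The 9 eisosome and tetraspan genes, which include other relatives of SUR7, had a median of 0, with 5 above 0 and 4 below. The mac1 gene had 116 and 120 FPKM in the Y41F libraries, against 83.3 and 98.2 FPKM in the WT libraries, a log2 fold change of 0.34 ± 0.10 (edgeR adjusted p = 0.556). The eisosome assembly gene fhn1 had 230 and 153 FPKM in the Y41F libraries, against 124 and 143 FPKM in the WT libraries, a log2 fold change of 0.48 ± 0.20. Y41F library 1 was the highest, and the value was 0.16 without it and 0.74 without Y41F library 2 (edgeR adjusted p = 0.00429). In the other direction pil2 had 19.5 and 23.5 FPKM in the Y41F libraries, against 22.8 and 40.0 FPKM in the WT libraries, a log2 fold change of -0.58 ± 0.25. Here WT library 2 lay apart from the other 3, and without it the value was -0.17. The main eisosome gene pil1 and sle1 had log2 fold changes of -0.03 ± 0.11 and 0.10 ± 0.10.

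Of 8 cell separation genes and forkhead factors, the group that acts with eng1, 6 had a fold change above 0 and 2 below, with a median of 0.09. The adg1 gene had 533 and 450 FPKM in the Y41F libraries, against 485 and 381 FPKM in the WT libraries. The groups overlapped, and its log2 fold change was 0.13 ± 0.17 (SE; edgeR adjusted p = 0.909). With a library left out it ran from -0.07 (without WT library 2) to 0.36 (without WT library 1). The septin ring gene mid2 had 0.18 ± 0.10, cfh4 had 0.17 ± 0.11 and adg2, the most abundant on the CPM scale, had -0.10 ± 0.16. The 8 cell integrity genes had a median of -0.03 and lay between -0.08 and 0.02, the narrowest range of the 5 lists. The transcription factor gene atf1 had -0.08 ± 0.09, the MAP kinase kinase gene pek1 had -0.07 ± 0.12 and the RNA-binding protein gene rnc1 had -0.05 ± 0.13.

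**Figure D4:**
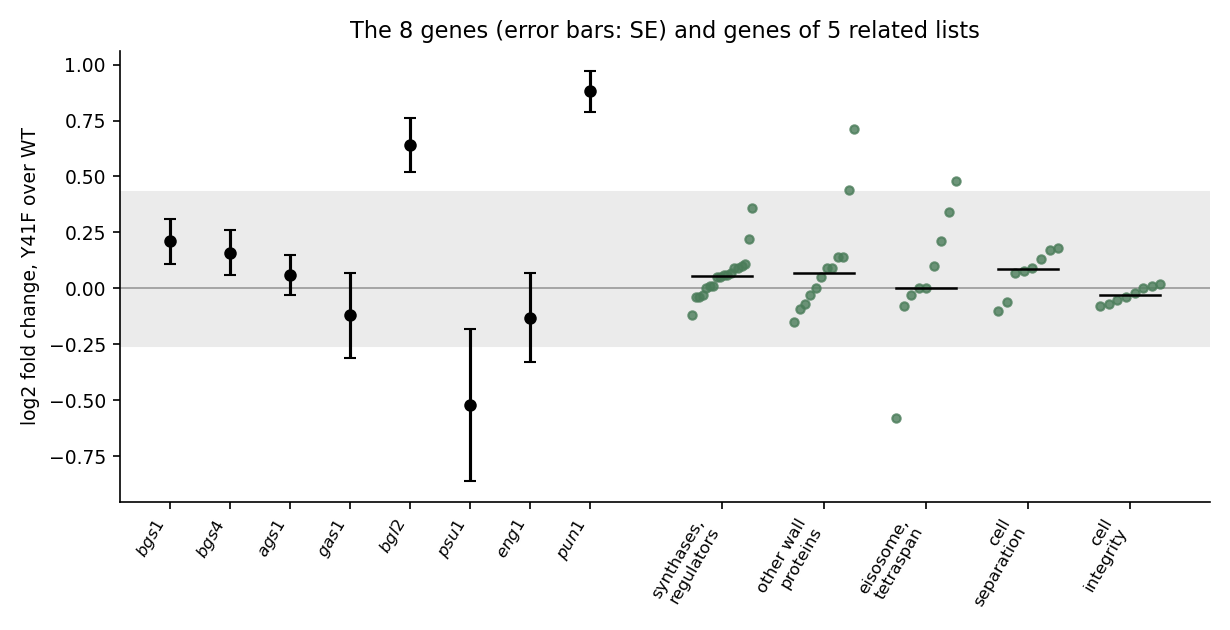
Log2 fold change of Y41F over WT for the 8 genes (black, error bars SE) and for the genes of 5 related lists (green, sorted within a list, bar at the median; agn1 is in the lists of wall proteins and of cell separation). The grey band spans the 5th to the 95th percentile of all genes tested, -0.26 to 0.43. Of the 8 genes pun1, bgl2 and psu1 lie outside it, as do meu10, gas2, fhn1 and pil2 of the lists.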

How the data were processed

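RNA-seq of 2 Y41F and 2 WT libraries was used. The deposited tables, 1 per library, give per gene an expected count and an FPKM value, per the file headers. RSEM, Bowtie, BWA and the build ASM294v2 are named, with no version or role, in the submitters' processing notes. All listed lengths are multiples of 3, so they are coding lengths. Genes at 0 are not listed, and a gene missing from a library was set to 0. Names came from the ASM294v3 annotation (5102 of 5133 identifiers matched); as the builds differ, no coordinates or sequences are given.

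Expected counts were rounded and tested with edgeR 4.0.16 in R 4.3.3 (quasi-likelihood, TMM, default expression filter removing 57 genes, Benjamini-Hochberg over 5076), without a replicate block. The script was tested on simulated data. Alternatives were DESeq2 1.42.0, other scalings and filters, a replicate block, leaving out each library, and limma 3.58.1 on log2(FPKM + 1) and log2(FPKM + 5). SEs are the fold change over the root of F.

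The members, lists and rules were chosen with earlier results of these data known. All members are named; from a list, the 3 genes with the largest change and the 2 most abundant by CPM; per member, the 3 nearest profiles. Paralogues (bgs2, bgs3, mok14, psu2, gas5) and neighbours were named for family or position, after values were seen. Of 59 list entries, 4 (pwp1, sup11, lsp1, fat3) matched no single gene and were not analysed here. A further entry is not reported here.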

Additional observations from a re-analysis of the deposited data

How the results depend on the processing

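Of 96 fold changes of the 8 genes under alternatives, 83 kept their direction and their side of the threshold, 9 became called in the same direction and 4 changed sign, all 4 of them eng1 or gas1 with a library left out (eng1 between -0.35 and 0.10, gas1 between -0.36 and 0.09). edgeR called 1 gene over all genes and 0 of the 8. DESeq2 called 68 and 2, and leaving out 1 library gave 0 to 197 and 0 to 3. limma called 2 genes over all on either FPKM scale and 0 of the 8. The numbers in the labels do not say that libraries are paired. With the replicate number as a block edgeR called 87 genes, 2 of them among the 8 (pun1 at an adjusted p of 0.00362 and bgl2 at 0.0211), and deviations of same-numbered libraries correlated at 0.45 across genes. The median log2 fold change of the synthase genes was 0.16, and it was 0.20 when scaled by library size alone, 0.20 and 0.19 with limma on log2(FPKM + 1) and log2(FPKM + 5), and 0.09 to 0.15 with a library left out. The log2 ratio of remodelling over synthase sums, -0.28, lay between -0.61 and -0.01 with a library left out. The cause of these shifts was not tested. Scaling moved the median of all genes by at most 0.04. With 2 libraries a group, the smallest exact two-sided permutation p is 0.333. Counting error was smaller than the difference between libraries of 1 group for psu1, eng1, gas1 and bgs1 in both groups. For pun1, bgl2, bgs4 and ags1 this held at least in Y41F.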
